A study of Mus musculus with 7 samples.

Results

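Selp, Sele, Vcam1, Icam1, Icam2, Ackr1, Vwf, Lyve1 and Prox1 are 9 genes by which the vessel wall catches leukocytes or by which venules and lymphatic vessels are recognised. They were found by symbol among the 21892 genes of a table of TPM values, a transcript abundance corrected for gene length and scaled to the same total in each library. All 9 were present, and 8 had a mean of at least 1 TPM over the 7 libraries; Prox1, at a mean of 0.643 TPM, did not and is given by its values. The study followed mouse tumors with a deletion in exon 19 of Egfr, passaged under the skin of C57BL/6 mice, labelled as lung tumor and profiled as whole frozen tissue. There was 1 library per group, so no spread between replicates, standard error or p-value exists and each difference below is one between 2 libraries.

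The groups share the tumor line, the strain and the site. The first received vehicle and was taken at day 3, with no drug recorded. Gefitinib, an inhibitor of the EGFR kinase, was given for 3 days in the second group and for 14 days in the third. The other 4 groups had 14 days of gefitinib and a further 7 days on vehicle, on DC101 (an antibody against VEGFR2), on 4H2 (the antibody used for PD-1, going by the series title) or on both, and were taken at day 21. Neither the age of the mice nor the number of animals per library was stated in the labels. No untreated tumor of day 14 or day 21 was analysed here, so time in the animal and treatment cannot be told apart between days.

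Leukocytes leave blood in steps, mostly in small venules. Selectins on the endothelium slow the cell by binding sugar chains on its surface. Chemokines then switch on its integrins, which grip immunoglobulin-family proteins such as ICAM-1 and VCAM-1 before the cell crosses the wall. Inflammatory cytokines raise E-selectin, VCAM-1 and ICAM-1 through NF-kappaB, whereas ICAM-2 is carried by resting endothelium. P-selectin and von Willebrand factor are stored together in endothelial Weibel-Palade bodies and in platelet granules. Lymphatic vessels are set apart by the transcription factor PROX1 and commonly by the hyaluronan receptor LYVE-1, which some tissue macrophages carry too.

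RefSeq windows of 250 bases before a transcript start were found for 5 of the 9 genes: Sele, Selp, Icam1, Ackr1 and Prox1. The 3 below belong to the cytokine-inducible pair Sele and Icam1, the members besides Lyve1 that stood higher at day 21 on vehicle than at day 14 of gefitinib, and to Selp, which did not. They are in GRCm38.p6, 5′ to 3′, and overlap no exon of the GENCODE M21 annotation; the Sele window lies inside the RefSeq span of that gene, before a later start. Capitals mark matches to GGNNNTTCC on either strand, a loose form of the sites bound by NF-kappaB that was chosen after the sequences were seen.
Sele, chr1:164047984-164048233, plus strand: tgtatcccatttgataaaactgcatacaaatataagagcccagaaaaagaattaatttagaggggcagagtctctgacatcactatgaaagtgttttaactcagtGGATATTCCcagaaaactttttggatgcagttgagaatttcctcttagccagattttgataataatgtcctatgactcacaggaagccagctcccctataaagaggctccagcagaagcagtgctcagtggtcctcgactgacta
Icam1, chr9:21015690-21015939, plus strand: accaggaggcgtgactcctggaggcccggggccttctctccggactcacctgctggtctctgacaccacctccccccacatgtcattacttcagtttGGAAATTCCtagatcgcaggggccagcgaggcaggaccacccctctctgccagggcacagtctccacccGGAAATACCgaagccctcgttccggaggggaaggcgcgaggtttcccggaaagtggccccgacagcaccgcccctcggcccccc
Selp, chr1:164115014-164115263, plus strand: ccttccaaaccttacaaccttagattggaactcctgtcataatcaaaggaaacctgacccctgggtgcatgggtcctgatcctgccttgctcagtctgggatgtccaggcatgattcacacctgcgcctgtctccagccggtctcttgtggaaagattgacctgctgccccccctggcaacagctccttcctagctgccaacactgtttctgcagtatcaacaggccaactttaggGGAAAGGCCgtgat
GGNNNTTCC occurred in the windows of Sele, Icam1, Selp and Ackr1 and in 15.7% of all 32851 windows. In Sele it was GGATATTCC, 145 to 137 bases before the start. In Icam1 it was GGAAATTCC, 153 to 145 bases before the start and readable on both strands, with another match at 84 to 76 bases. In Selp it lay at 14 to 6 bases before the start, on the minus strand. The full NF-kappaB consensus, present in 7.25% of windows, and the core of the interferon-stimulated response element (2.98%) were in none of the 5 genes' windows. TATAAA (12.4% of windows) was in those of Sele, 49 to 44 bases before the start, and Prox1. A match of letters is a description and shows no binding.

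The libraries differed widely in tissue content. Of 13997 genes with a mean of at least 1 TPM, 12 epithelial genes (Krt18, Krt8 and others) summed to between 1338 and 8228 TPM in 5 libraries but to 50.9 TPM with 4H2 and 422 TPM with both antibodies. The 12 skeletal muscle genes (Acta1, Atp2a1 and others) held 0.0307% to 0.39% of all TPM in the 4 libraries without antibody, 1.81% with DC101, 8.45% with 4H2 and 8.44% with both. By these markers the 4H2 and combination libraries, although labelled as tumor, held little epithelial RNA, and values for them are given separately. Endothelial genes were found in every library: all 15 on the list were above 0, with Pecam1 at 26.9, 112.2, 82.1, 67.5, 55, 56.4 and 58 TPM from vehicle at day 3 to the combination, in the order of groups above, and Cdh5 at 42.7, 149.2, 74.8, 91.4, 54.5, 52.4 and 43.5 TPM. In such bulk tissue, fewer vessels and less RNA per vessel cell cannot be told apart.

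**Figure D1:**
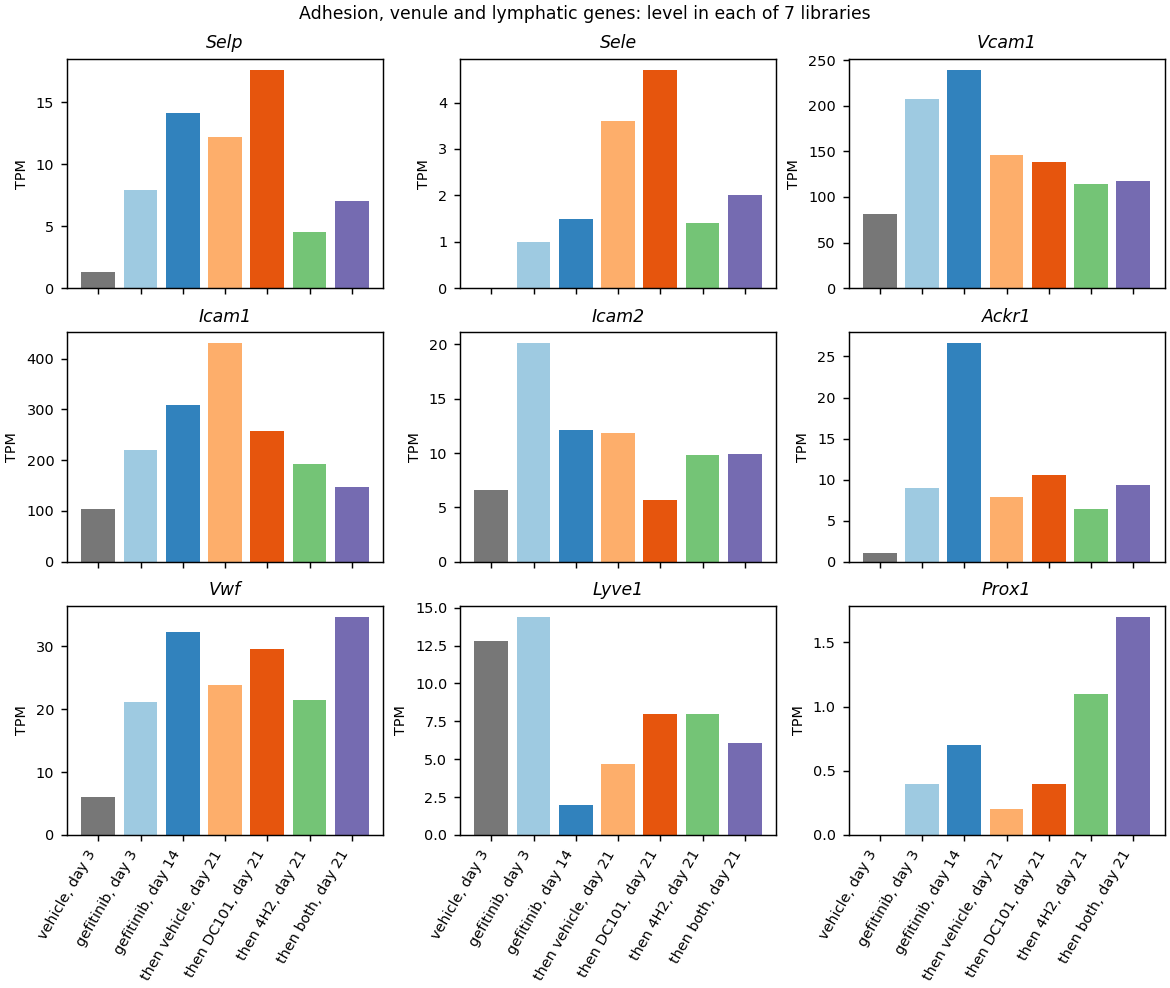
TPM (linear axis from 0, scaled per gene) of the 9 genes, 1 bar per library; "then" marks libraries taken after 14 days of gefitinib and 7 further days. The day 3 vehicle bar is the lowest for 7 of the 9 genes, the exceptions being Icam2 and Lyve1.

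The day 3 vehicle tumor had the lowest level of 7 of the 9 genes (Selp, Sele, Vcam1, Icam1, Ackr1, Vwf and Prox1). The count was also 7 after median-of-ratios rescaling. Leaving out the 4H2 and combination libraries could not change it, as neither held the lowest level of any of the 9 genes. This was not particular to the 9 genes, and the share of all genes lowest in that library is not given here. The 15 general endothelial genes summed to 267.1 TPM there, against 419.3 to 746.9 TPM in the other libraries. Sums of macrophage, fibroblast and leukocyte genes were also lowest there. Those of selectin ligand, lymphatic, Weibel-Palade body and epithelial genes, among others, were lowest elsewhere. Icam1 and Vcam1 were the most abundant, making up between 78.9% and 90% of the summed TPM of the 9 genes in each library. Sele and Prox1 lay at the other end, never above 4.7 and 1.7 TPM.

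P-selectin (Selp, chromosome 1, 164115264 to 164150026, plus strand) draws leukocytes into rolling. Selp was at 1.3 TPM on vehicle at day 3, 7.9 and 14.1 TPM at days 3 and 14 of gefitinib, and at day 21 at 12.2 TPM on vehicle, 17.6 with DC101, 4.5 with 4H2 and 7 with both. The DC101 library was the highest and, at day 21, the 2 libraries with 4H2 were the lowest. E-selectin (Sele, chromosome 1, 164039614 to 164058487, plus strand) is encoded by a neighbour of Selp and is raised in endothelium by inflammatory cytokines. Sele was listed at 0 on vehicle at day 3 and was at 1, 1.5, 3.6, 4.7, 1.4 and 2 TPM in the following libraries. Its order of libraries at day 21 was that of Selp. The ratio of Selp to Sele was 7.9 and 9.4 in the 2 gefitinib libraries and between 3.21 and 3.74 in the 4 libraries of day 21. Sele is so low that rounding to 0.1 TPM matters for it.

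ICAM-1 (Icam1, chromosome 9, 21015940 to 21028814, plus strand) is the ligand of the leukocyte integrins LFA-1 and Mac-1. Icam1 was at 103 TPM on vehicle at day 3, 219.1 and 308.3 TPM on gefitinib, and 429.9 TPM on vehicle at day 21, its highest value. With DC101 it was at 257.4 TPM, with 4H2 at 192.7 and with both at 146.6, so that each antibody library lay below the day 21 vehicle library and above day 3 vehicle. Epithelial cells can also make ICAM-1, and the 12 epithelial genes summed to 4379, 1338, 2157, 8228, 5513, 50.9 and, with both antibodies, 422 TPM. Their part in the differences of Icam1 was not tested.

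VCAM-1 (Vcam1, chromosome 3, 116110020 to 116129688, minus strand) binds the integrin VLA-4 of lymphocytes and monocytes. Vcam1 was at 81.1 TPM on vehicle at day 3, 207.5 and 239.1 TPM on gefitinib, and 145.9, 137.9, 113.7 and 117.5 TPM at day 21 on vehicle, DC101, 4H2 and both. Its ratio of highest to lowest library, 2.95, was the smallest among the genes above 0 in every library. The 4 values of day 21 lay between the day 3 vehicle and gefitinib values. The ratio of Icam1 to Vcam1 was between 1.06 and 1.29 in the first 3 libraries, 2.95 on vehicle at day 21, and 1.87, 1.69 and 1.25 with DC101, 4H2 and both. Vcam1 is also made by macrophages, fibroblasts and muscle satellite cells. The 13 macrophage genes summed to 1513, 12590, 13920, 6150, 5654, 9935 and 7767 TPM in the 7 libraries, and the 9 fibroblast genes to 2301, 23250, 11840, 8380, 7149, 9113 and 9572 TPM; their part in Vcam1 was not tested. Pax7, the defining gene of satellite cells, was at most 0.7 TPM, and none of the 4 satellite cell genes reached a mean of 1 TPM.

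ICAM-2 (Icam2, chromosome 11, 106377656 to 106388139, minus strand), a constitutive endothelial ligand of LFA-1, differed from its inducible relative. Icam2 was at 6.6 TPM on vehicle at day 3, peaked at 20.1 TPM at day 3 of gefitinib, and was at 12.1 TPM at day 14. At day 21 it was at 11.8 TPM on vehicle, 5.7 with DC101, 9.8 with 4H2 and 9.9 with both. The DC101 library was the lowest of all 7, which held for no other of the 9 genes. The ratio of Icam1 to Icam2 went from 10.9 at day 3 of gefitinib to 45.2 with DC101.

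Ackr1 (chromosome 1, 173331886 to 173333503, minus strand) encodes an atypical chemokine receptor that marks venules and carries chemokines across their wall. It was at 1 TPM on vehicle at day 3, 9 TPM at day 3 and 26.6 TPM at day 14 of gefitinib, and 7.9, 10.6, 6.4 and 9.3 TPM at day 21 on vehicle, DC101, 4H2 and both. The day 14 library stood clear of the rest. One limit is the neighbour Cadm3, a cell adhesion gene on the same strand: 361 of the 1405 exon bases of Ackr1 lie within exons of Cadm3 in GENCODE M21, and the counting of shared reads was not stated in the labels. Cadm3 was at 3.1, 11.3, 33.7, 3.5, 5.7, 6.8 and 9.1 TPM, also highest at day 14, so the value of Ackr1 in that library is uncertain.

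Von Willebrand factor (Vwf, chromosome 6, 125552948 to 125686679, plus strand) tethers platelets and is abundant in veins. Vwf was at 6 TPM on vehicle at day 3, 21.2 and 32.3 TPM on gefitinib, and 23.9, 29.5, 21.5 and 34.7 TPM at day 21. Outside the day 3 vehicle library its values spanned only 21.2 to 34.7 TPM, with the combination highest. Platelets hold RNA of Selp and Vwf too. The 8 platelet genes summed to between 51.6 and 174.1 TPM, of which Pf4, a gene that macrophages also express, gave 47.9 to 166.3 TPM. The other 7 were low but not all at 0. Itga2b was between 1.7 and 3.2 TPM, Gp1ba between 0.7 and 3.3, Gp1bb between 0.4 and 3.8 and Ppbp between 0.2 and 2.6 TPM, while Gp6, Gp9 and Treml1 had no value above 0.7 TPM. Of these, the genes besides Pf4 and Itga2b were named after their values were seen. The part of platelets in Selp and Vwf was not tested.

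Lyve1 (chromosome 7, 110850607 to 110862953, minus strand) ran the other way. It was at 12.8 TPM on vehicle at day 3 and 14.4 TPM at day 3 of gefitinib, but at 2 TPM at day 14 of gefitinib, its lowest value. At day 21 it was at 4.7 TPM on vehicle, 8 with DC101, 8 with 4H2 and 6.1 with both. No library of day 14 or day 21 reached either library of day 3. Prox1 (chromosome 1, 190118035 to 190170827, minus strand) was listed at 0 on vehicle at day 3 and was at 0.4, 0.7, 0.2, 0.4, 1.1 and 1.7 TPM in the others, with its 2 highest values in the libraries that received 4H2. Those are also the libraries with the most skeletal muscle RNA, a tissue in which Prox1 is expressed outside lymphatic vessels; the part of muscle was not tested.

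The other lymphatic genes were mixed, and several did not follow Lyve1. Ccl21a, a chemokine of lymphatic vessels whose reads near-identical copies may share, was listed at 0 on vehicle at day 3 and was at 7 and 46 TPM at days 3 and 14 of gefitinib, and at 10.5, 22.2, 27 and 28.8 TPM at day 21. Reln was at 3.4 and Mmrn1 at 1.5 TPM at day 14, each its highest value, and both were listed at 0 on vehicle at day 3. Against day 3 of gefitinib, 7 of 12 compared lymphatic genes were above 0 at day 14 and 5 below. By at least 2-fold, 4 were higher and 1 was lower, namely Vegfd (2.9 against 7.1 TPM). Sox18 was at 43.9 against 83.4 TPM. Pdpn and Itga9, the most abundant on the list and also made by other cells, were at 155.2 against 76.5 TPM and 73.1 against 61.8 TPM.

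Some macrophage genes were, like Lyve1, lower at day 14 than at day 3 of gefitinib. The macrophage list had a median of -0.07 in that pair, with 8 of 13 genes below 0. Its most abundant genes were above 0: C1qa was at 4330.2 against 3508.1 TPM and C1qc at 3793.9 against 3234.8 TPM. None of the 13 was at least 2-fold higher and 3 were lower, namely Folr2 (10.7 against 127.2 TPM), F13a1 (10.3 against 122.8) and Cd163 (6.8 against 28.2), all known from resident macrophages. Mrc1 was at 195.2 against 315.7 TPM. In other pairs Folr2, F13a1 and Cd163 went with Lyve1 in part. At day 14 of gefitinib against vehicle at day 3 they were at -1.21, -1.87 and -1.29, and Lyve1 at -2.20. They also shared its sign on vehicle at day 21 against vehicle at day 3, and in each antibody library against vehicle at day 21. With both antibodies against either alone, Lyve1 was at -0.34 while all 3 were above 0. From vehicle to gefitinib at day 3, Folr2 differed by 2.25 and F13a1 by 1.58 while Lyve1 differed by 0.16. On vehicle at day 21 against day 14, Folr2 was at -0.44 and Cd163 at -0.86, while F13a1 was at 0.52 and Lyve1 at 0.93. At day 21, Folr2 was at 7.6, 17.8, 21.9 and 52.9 TPM on vehicle, DC101, 4H2 and both. Folr2, F13a1, Cd163 and Mrc1, like Ccl21a, Reln, Mmrn1, Vegfd, Sox18 and Cadm3, were picked after their values were seen. Whether macrophages or vessels gave the RNA of Lyve1 was not tested.

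**Figure D2:**
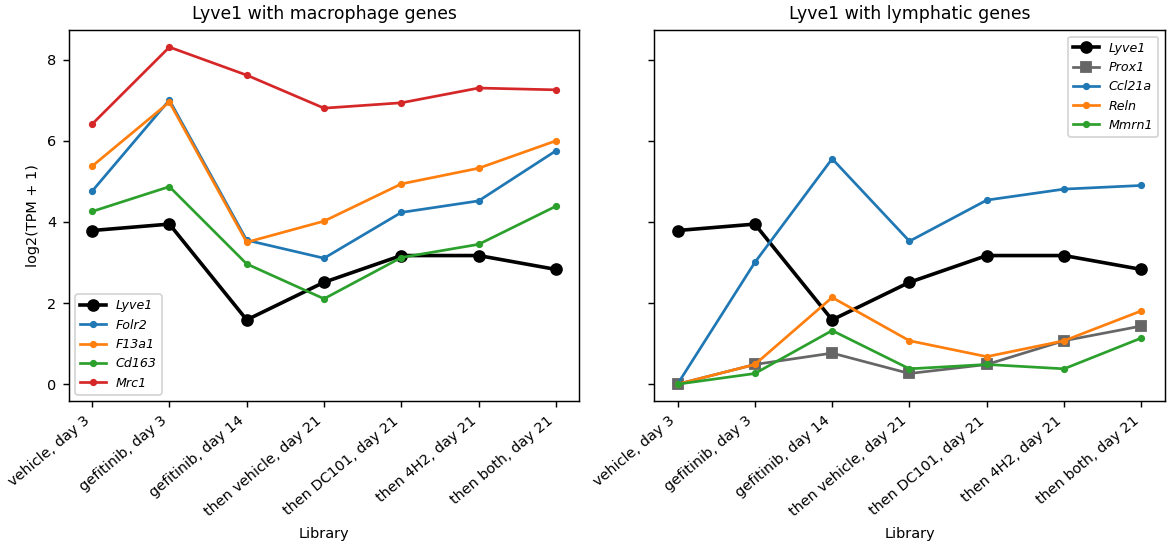
log2(TPM + 1) of Lyve1 in the 7 libraries beside 4 macrophage genes (left) and beside Prox1 and 3 lymphatic genes (right); lines only join the points of a gene. Between day 3 and day 14 of gefitinib Lyve1, Folr2, F13a1 and Cd163 are lower by at least 2-fold, while Ccl21a and Reln are higher.

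Differences between libraries were taken as log2((TPM + 1) / (TPM + 1)), which understates the change of low genes, and were called at 2-fold or more. At day 3 of gefitinib against vehicle at day 3, 7 of 8 compared members were higher and none lower, where 20.8% of all compared genes were higher and 14.4% lower. Their median difference was 1.41, beside -0.09 for all genes. Ackr1 differed by 2.32, Selp by 1.95 and Vwf by 1.67, while Icam1 differed by 1.08 and Sele by 1, right at the threshold. Lyve1 differed by 0.16. General endothelial genes were higher as well, 12 of 15 with a median of 1.91, a larger median than that of the members. Fibroblast genes (9 of 9, median 2.92) and macrophage genes (12 of 13, median 2.81) were higher too, while 11 of 12 epithelial genes were lower (median -1.83). The part of tissue content in the members' differences was not tested. The call for Sele ended with a pseudocount of 5, at 0.26, as it did for day 14 of gefitinib (0.38) and day 21 on vehicle (0.78) against the same library.

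At day 14 of gefitinib against the same vehicle library, 6 of 8 members were above 2-fold and Lyve1 was lower (background 22.7% higher and 12.7% lower). Over the 8, the median was 1.56, beside 0.03 for all genes. Ackr1 differed by 3.79, Selp by 2.71, Vwf by 2.25, Icam1 by 1.57 and Vcam1 by 1.55, while Icam2 was within 2-fold at 0.79 and Lyve1 differed by -2.20. In this pair 6 of 12 epithelial genes were lower (median -1.02). Fat genes summed to 740.2 against 133 TPM and skin and hair genes to 107.4 against 10.7 TPM. Their part was not tested. Set directly against day 3 of gefitinib, only Ackr1 (1.46) was higher and only Lyve1 (-2.36) lower, with a background of 4.93% and 2.73%. The Ackr1 differences of day 14 rest on a value left uncertain by the exons shared with Cadm3. The general endothelial genes had a median of -0.29 in that pair, with none higher and 1 lower.

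On vehicle at day 21 against day 14 of gefitinib, none of the 8 was higher and only Ackr1 was lower, at -1.63 (background 7.62% higher and 7.89% lower). A share of 1 in 8 is near that background, and the call rests on the same uncertain day 14 value of Ackr1. In this pair 11 of 12 epithelial genes were higher (median 1.58), and their part was not tested. Sele (0.88), Lyve1 (0.93) and Icam1 (0.48) stood above 0 and Vcam1 at -0.71. With a pseudocount of 0.1, Sele and Lyve1 passed 2-fold, making 2 members higher. Against vehicle at day 3, the same day 21 library had 5 of 8 members higher (Selp 2.52, Sele 2.20, Ackr1 2.15, Icam1 2.05 and Vwf 1.83) and Lyve1 lower at -1.28, beside 15.3% and 3.11% of all genes. The Lyve1 call ended with a pseudocount of 5. These 5 comparisons share libraries: each of the 4 libraries enters more than a single comparison.

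**Figure D3:**
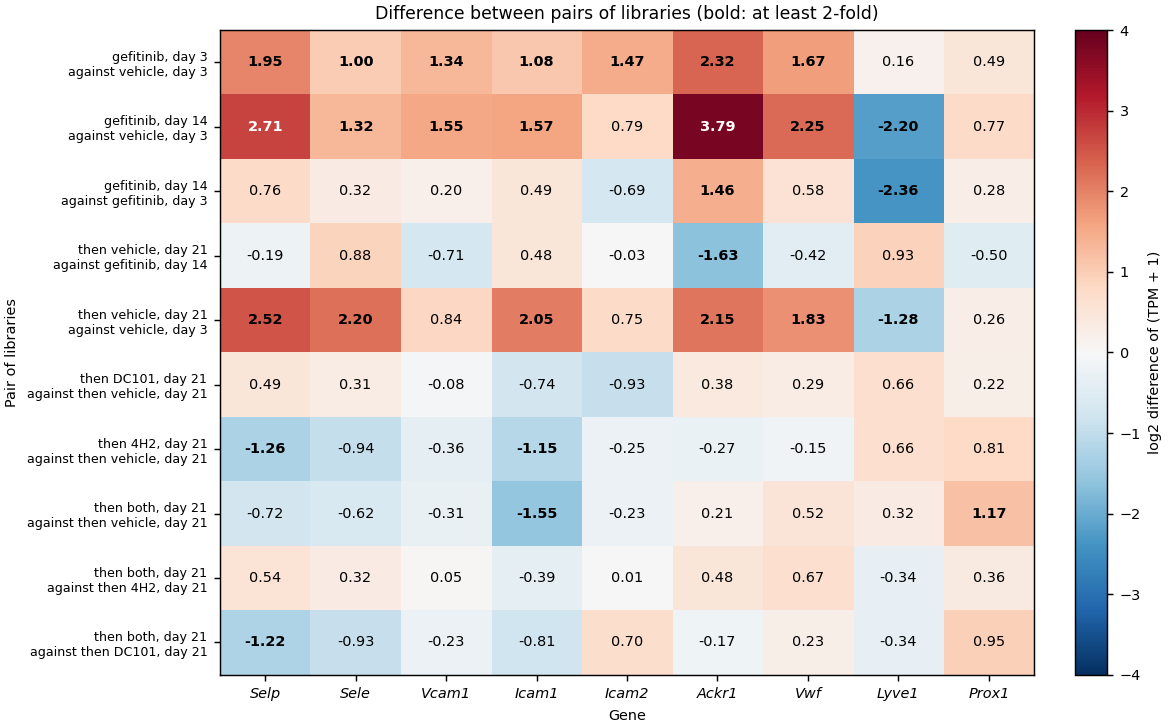
log2 difference of (TPM + 1) for each gene (columns) in 10 pairs of libraries (rows); red is higher and blue lower in the library named first, bold marks 2-fold or more, and "then" marks groups taken 7 days after gefitinib. Lyve1 is blue where its neighbours are red at day 14 of gefitinib (-2.20 against vehicle at day 3), and no gene is bold in the DC101 row.

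Among the partners on leukocytes, the integrins were mostly higher on gefitinib and the selectin ligands were mixed. Of 11 leukocyte integrin genes and their activators, 9 were higher at day 3 of gefitinib (median 2.51) and 9 at day 14 (median 2.44) against vehicle at day 3, with none lower. Itgb2, the shared chain of LFA-1 and Mac-1, was at 70.3, 375 and 384.6 TPM in these 3 libraries and at 244.1, 235.4, 403.3 and 324.4 TPM at day 21; Itgb1 stayed between 212.6 and 396.2 TPM. Of 11 selectin ligand genes, 5 were higher and 1 lower at day 3 of gefitinib (median 0.15). Selplg, the main P-selectin ligand, was at 44.3 against 295.1 TPM from vehicle to gefitinib at day 3, while Cd44 was at 145.8 and 145.7 TPM. Of 9 other genes of leukocyte passage, 3 were higher and none lower in that pair (median -0.21), and the junction gene F11r, also epithelial, was at 119.1 and 68.5 TPM beside Cd47 at 103.3 and 166 TPM. The 9 leukocyte genes, led by Ptprc and Cd3e, summed to 31.5, 328.5, 591.7, 234.9, 188.9, 518.9 and 393.6 TPM in the 7 libraries.

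Genes of the cytokine and interferon routes to endothelial activation had a similar course. Of 18 cytokine, receptor and NF-kappaB genes, 10 were higher at day 3 and 13 at day 14 of gefitinib against vehicle at day 3, and none lower; Nfkbia was at 78.2, 218.3 and 320.5 TPM and Tnfrsf1a at 168.5, 277 and 264.4 TPM. Of 12 interferon gamma genes, 11 were higher in each of the 2 pairs (medians 3.25 and 4.11), with Gbp2 at 27.5, 437.8 and 564.8 TPM and Iigp1 at 23.1, 222.4 and 479.5 TPM. On vehicle at day 21 against day 14 of gefitinib, 17 of the 18 cytokine genes and all 12 interferon gamma genes were below 0, while Icam1 and Sele were above it.

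Among vessel genes of other kinds, 3 of 5 compared vein genes were higher and 1 lower at day 14 of gefitinib against vehicle at day 3. Plvap was at 257.6 against 65.1 TPM and Lrg1 at 160.8 against 22.4 TPM. Of 9 artery genes, 4 were higher and 1 lower, with Unc5b at 13.2 against 9 TPM and Gja4 at 21.8 against 2.9 TPM. Of 7 compared genes of the Weibel-Palade bodies that store the Selp and Vwf proteins, none was higher and 1 was lower, with Cd63 at 572.1 against 379.3 TPM and Ece1 at 144.9 against 89.3 TPM. Of the 15 general endothelial genes, 10 were higher and none lower, and Eng was at 149.6 against 29 TPM.

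Measured against the mean log2(TPM + 1) of the 15 endothelial genes, members took different courses. That mean was 3.51 on vehicle at day 3, 5.19 and 4.90 on gefitinib, and 4.70, 4.38, 4.43 and 4.43 at day 21. Vcam1 kept the narrowest distance from it, between 2.41 and 3.01 above. Selp was 2.31 below it on vehicle at day 3 (-2.31) and came nearest with DC101, at -0.17. Ackr1 came from -2.51 to -0.11 at day 14 of gefitinib. Vwf was at -0.71 on vehicle at day 3, -0.72 at day 3 of gefitinib, 0.55 with DC101 and 0.73 with both antibodies. Icam2 lay between -0.59 and -1.64, lowest with DC101. Lyve1 had the widest range, 3.58, from 0.27 on vehicle at day 3 to -3.31 at day 14 of gefitinib. Sele and Prox1 were listed at 0 on vehicle at day 3, so their distances there are set by the pseudocount. Esam, 1 of the 15 endothelial genes, was picked after its values were seen. Against vehicle at day 21 it was at -2.28 with 4H2 and -2.04 with both, where the 15 had medians of -0.22 and -0.13. It therefore lowers the mean in those libraries, and a mean without it was not computed.

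**Figure D4:**
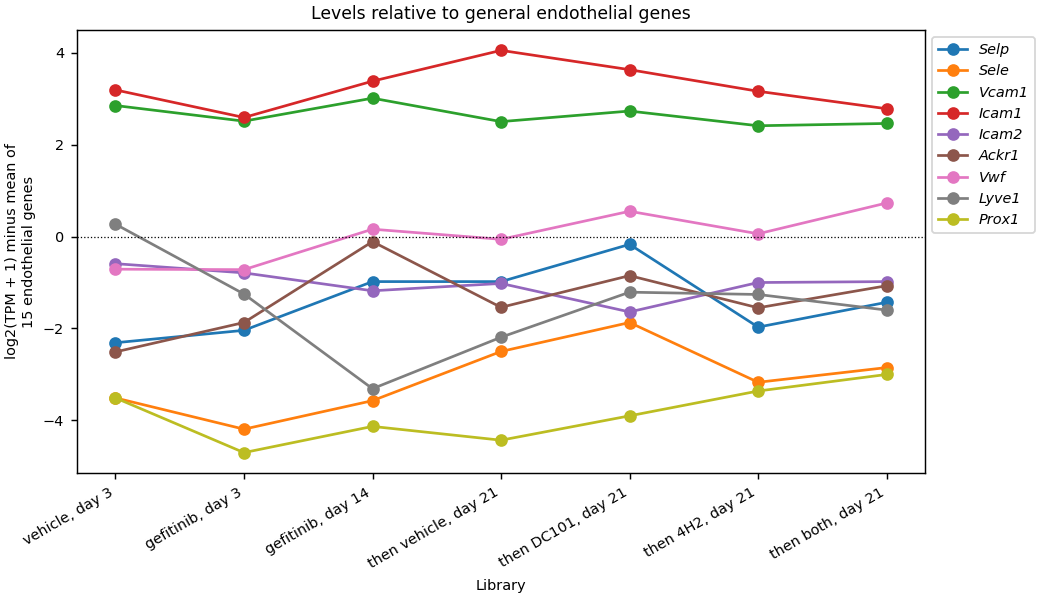
Distance of each gene's log2(TPM + 1) from the mean of 15 general endothelial genes in the same library (dotted line at 0); lines only join the points of a gene. Vcam1 stays within 2.41 to 3.01, whereas Lyve1 goes from 0.27 to -3.31.

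With DC101 against vehicle at day 21, no member passed 2-fold on the log2(TPM + 1) scale (background 3.12% higher and 1.11% lower), beside a median of -0.05 for all genes. Lyve1 was at 0.66, Selp at 0.49, Ackr1 at 0.38, Sele at 0.31 and Vwf at 0.29. Icam2 was at -0.93 and Icam1 at -0.74, while Vcam1, at -0.08, lay near the median of all genes. Only 1.3% of all compared genes lay below Icam2 and 2.6% below Icam1, whereas 94.7% lay below Lyve1 and 92.6% below Selp. Icam2 passed 2-fold with a pseudocount of 0.1. General endothelial genes lay below 0 in 14 of 15 cases (median -0.29), interferon gamma genes in 12 of 12 (median -0.41), cytokine and NF-kappaB genes in 17 of 18 (median -0.24) and artery genes in 8 of 9 (median -0.54). Vein genes lay below 0 in 3 of 5 cases (median -0.10) and Weibel-Palade body genes in 4 of 7 (median -0.08), both near an even split. Lymphatic genes did so in 8 of 12 (median -0.37, with 1 higher and 2 lower by 2-fold). Of the most abundant vein and Weibel-Palade body genes, Lrg1 was at 0.81 and Cd63 at 0.18, beside Plvap at -0.14 and Ece1 at -0.4. Muscle genes summed to 18070 TPM with DC101 against 3216 TPM on vehicle, fat genes, Cfd and Pnpla2 highest, to 470.4 against 234.9 TPM, and skin and hair genes, Tchh and Krt71 highest, to 29.7 against 7 TPM; their part in the members' values was not tested. Muscle genes summed to 84540 TPM with 4H2 and 84400 TPM with both antibodies.

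With 4H2 against vehicle at day 21, Selp (-1.26) and Icam1 (-1.15) were lower and no member higher, where 20.0% of all compared genes were lower and 10.9% higher; a share of 2 in 8 is near that background. Under median-of-ratios rescaling, which moved the median of all genes, Icam1 came to -0.90 and only Selp was called; with a pseudocount of 5 Selp came to -0.86 and only Icam1 was called. With a pseudocount of 0.1, Sele passed 2-fold at -1.30. Sele was at -0.94, Vcam1 at -0.36, Icam2 at -0.25, Ackr1 at -0.27 and Vwf at -0.15, the last turning to 0.10 under that rescaling. Lyve1 was at 0.66. Leukocyte genes were higher in the same pair, 5 of 7 with none lower, and the integrin list had a median of 0.74, with 1 of 11 higher by 2-fold, 8 above 0 and 3 below. All 12 epithelial genes were lower, with a median of -6.48; the part of epithelial RNA in these values was not tested.

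With both antibodies against vehicle at day 21, Icam1 was lower at -1.55 and no compared member was higher (background 17.0% lower and 11.7% higher). A share of 1 in 8 is near that background. All 12 epithelial genes were lower in this pair (median -4.03), and their part was not tested. Selp was at -0.72, Sele at -0.62, Vcam1 at -0.31 and Icam2 at -0.23, while Vwf was at 0.52, Lyve1 at 0.32 and Ackr1 at 0.21. Prox1, outside the comparison for its low mean, was at 1.7 against 0.2 TPM. Against 4H2 alone no member passed 2-fold (background 4.94% higher and 0.464% lower), with Vwf at 0.67, Selp at 0.54 and Ackr1 at 0.48. Against DC101 alone Selp was lower at -1.22 (background 14.3% lower and 11.1% higher), with Sele at -0.93, Icam1 at -0.81 and Icam2 at 0.70. The Selp call ended with a pseudocount of 5 (-0.91), and Sele joined it with one of 0.1 (-1.19). Here too 1 in 8 is near the background, and all 12 epithelial genes were lower (median -3.58). All 3 antibody comparisons share the day 21 vehicle library. Erythroid genes, Hba-a1 and Hba-a2 highest, summed to 102.7, 71.4, 104 and 199.9 TPM on vehicle, DC101, 4H2 and both at day 21, and skin and hair genes to 572 TPM with both.

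**Figure D5:**
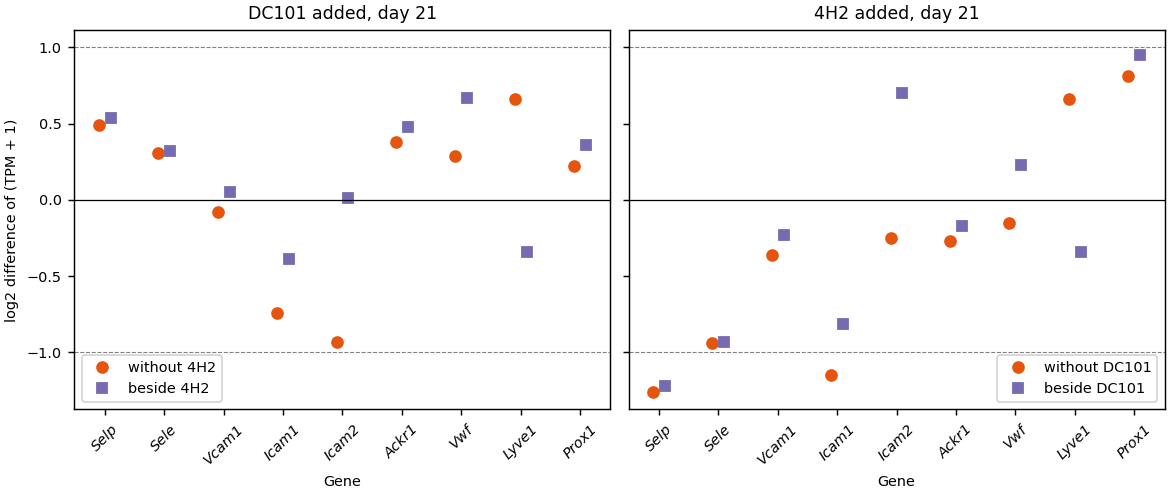
log2 difference of (TPM + 1) when DC101 (left) or 4H2 (right) was added at day 21, without the other antibody (circles) and beside it (squares); dashed lines mark 2-fold. The circle and square of Selp nearly coincide in each panel (0.49 and 0.54 for DC101, -1.26 and -1.22 for 4H2), whereas Lyve1 and Icam2 have them on opposite sides of 0.

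The closest companions of each member were sought by the root mean square difference of log2(TPM + 1) profiles, each centred on its own mean, over the 7 libraries and 13540 genes; smaller is more alike, and genes with a small range match easily. The closest were Bcl2a1a and Slc12a7 for Vcam1 (0.11 each), Piezo2 (0.12) and Mfsd9 (0.13) for Icam2, Slc26a6 (0.08) and Dtx1 (0.10) for Prox1, and H2-Eb2 (0.18) and Exoc3l2 (0.22) for Vwf. Icam1 was nearest to Endod1 (0.18) and Parp9 (0.20), Selp to Apol9b (0.23) and Tacr1 (0.28), Sele to Misp (0.26) and Rasgrf2 (0.30), Ackr1 to Ccr8 (0.23) and Syt15 (0.29). Lyve1 had the most distant companions, Gas6 (0.30) and Aldh1a2 (0.36). Gas6, a ligand of TAM receptors, was at 915.7 and 822.5 TPM in the 2 libraries of day 3, 191.7 TPM at day 14 and between 254.7 and 384.1 TPM at day 21, so it too was high at day 3 and lowest at day 14. Among the members themselves, Vcam1 and Icam2 were the closest pair (0.40), Selp and Sele were at 0.48, and Ackr1 and Lyve1 were the most distant (1.65).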

How the data were processed

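The values are TPM, normalized by the authors and deposited as 1 table of 21892 gene symbols and 7 libraries, rounded to 1 decimal. RNA came from frozen tissue, was depleted of ribosomal RNA and went into directional libraries, per the labels' protocols. GRCm38.p6 is the only build named, per the submitters' processing notes. No label names the aligner, the counter or whether counting used strand (not given in the sources used here). Since TPM does not carry the number of reads, depth is unknown and counting intervals are left out. Symbols were matched to RefSeq tables of GRCm38.p6, which gave 20473 of them, and overlaps to GENCODE M21. Python 3.11.15, numpy 2.4.6, pandas 2.3.3 and matplotlib 3.10.9 were used.

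With 1 library per group no test was run. The 10 differences were computed as log2 ratios with a pseudocount of 1 on genes with a mean of at least 1 TPM, called at 2-fold; the counting was tested on simulated data. Named genes are the 9 members, Pecam1, Cdh5, the 2 most abundant genes of each of 20 lists (205 of 208 entries found; 1 further platelet gene is not reported here) and the 2 nearest profiles per member; others are marked where they appear. The members and lists were chosen with earlier results of these data known. The alternatives tried were a pseudocount of 0.1 or 5, no filter, a mean of at least 5 TPM, median-of-ratios rescaling over 7340 genes, and rescaling without muscle, fat, skin and erythroid genes.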

Additional observations from a re-analysis of the deposited data

Results flagged for a closer look

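At day 21 each antibody was given without and beside the other, which allows its difference to be read in both settings, with 1 library each; 4 genes had opposite signs in the 2 settings, and none of these differences could be tested. For Lyve1, adding DC101 gave 0.66 without 4H2 and -0.34 beside it, and adding 4H2 gave 0.66 without DC101 and -0.34 beside it (log2 of TPM + 1). For Icam2, adding DC101 gave -0.93 without 4H2 and 0.01 beside it, and adding 4H2 gave -0.25 without DC101 and 0.70 beside it; after median-of-ratios rescaling the pairs were -0.89 and 0.00, and -0.01 and 0.88. For Vwf, adding 4H2 gave -0.15 without DC101 and 0.23 beside it; after median-of-ratios rescaling these were 0.10 and 0.42, no longer opposite. For Vcam1, adding DC101 gave -0.08 without 4H2 and 0.05 beside it, both small.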

How the results depend on the processing

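No paired analysis was possible because each group holds 1 library. Of 122 alternative counts, 114 stayed within 1.5 times of those reported. With a pseudocount of 0.1, members higher on vehicle at day 21 against day 14 of gefitinib numbered 2 in place of 0, members lower with DC101 against vehicle 1 in place of 0, and members lower with both antibodies against DC101 2 in place of 1. With a pseudocount of 5, members lower on vehicle at day 21 against day 3 numbered 0 in place of 1, members lower with 4H2 against vehicle 1 in place of 2, and members lower with both against DC101 0 in place of 1. Without a filter, Prox1 entered and members higher with both against vehicle numbered 1 in place of 0. Median-of-ratios rescaling left 1 member lower with 4H2 against vehicle in place of 2. Of 470 single differences under alternatives, 456 kept their sign and side of 2-fold, 12 changed side, and 2 turned sign, both small: Vwf with 4H2 against vehicle (-0.15 to 0.10) and Ackr1 with both against DC101 (-0.17 to 0.01). Median-of-ratios rescaling shifted the 4H2 library by 0.16 and the day 21 vehicle library by -0.10 on the log2 scale. The depth is unknown, and Sele and Prox1 lie within a few TPM of 0, where rounding to 0.1 TPM matters.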
